A study of Mus musculus with 12 samples.

Results

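The genes described here are 35 genes of meningeal and perivascular fibroblasts, taken as a named list from 56980 gene identifiers in the deposited count table. All 35 symbols matched 1 identifier each. All 35 also passed the filter on low counts, as did 19152 identifiers in all. The list was drawn up with the genotype difference at 9 months already known, so that difference, the age differences and their interaction are given below as descriptions. The genotype comparison at 3 months shares no library with the one at 9 months and is the comparison given with a test. Its fit takes the spread from all libraries, those at 9 months included. Earlier results of these data were known when the list was chosen, so this test may not be fully independent of that choice.

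Fibroblasts of the brain sit in the meninges, the membranes that wrap the brain and dip into the fissure around the hippocampus, and along the larger vessels that enter from them. They lay down fibril-forming collagens, decorate the fibrils with small leucine-rich proteoglycans, and cross-link them outside the cell. The arachnoid barrier cells next to them carry transporters that move amino acids, anions and osmolytes between cerebrospinal fluid and blood. Meningeal cells also make retinoic acid and bind insulin-like growth factors, both of which act on the developing and adult brain.

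Hippocampal RNA of 12 male mice was sequenced, with a library for each mouse identifier. Every mouse had the App NL-G-F allele, a knock-in of an amyloid precursor protein gene that is partly humanised, bears familial Alzheimer mutations and leads to amyloid-β plaques without overexpression. Mice lacking Trem2, a lipid-sensing receptor of microglia, on this background are called Trem2-KO, and mice with intact Trem2 are called App-KI. Trem2-KO mice at 9 months, App-KI mice at 9 months, Trem2-KO mice at 3 months and App-KI mice at 3 months gave 3 libraries each. The labels name no mouse without the knock-in, no litter and no dissection batch, and they do not say which part of Trem2 was deleted. Age and plaque load therefore cannot be told apart. The p-values measure the spread between these mice.

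Library totals ran from 14627892 to 24594655 counts, so that 3 counts, the most that a count of 0 allows, equal 0.122 to 0.205 CPM (read counts per library size, corrected for library composition). Such limits cover counting error only. The fewest reads of any of the 35 genes in a library were 7, for Lox and Foxc2. Trem2 averaged 3.74 ± 0.110 CPM in Trem2-KO and 52.7 ± 2.90 CPM in App-KI mice at 9 months, and 1.98 ± 0.165 CPM in Trem2-KO and 9.19 ± 1.15 CPM in App-KI mice at 3 months (SD, n = 3 each). These levels fit the genotype labels at both ages. Genes of hippocampal neurons such as Neurod6 and Zbtb20 summed to between 1212 and 1427 CPM over 11 genes in every library. Choroid plexus, a secretory tissue that lies against the hippocampus, was carried along unevenly: its 20 marker genes summed to 465 to 8247 CPM in Trem2-KO and 433 to 3947 CPM in App-KI mice at 9 months, and to 2047 to 3599 CPM in Trem2-KO and 465 to 4515 CPM in App-KI mice at 3 months. The 3 libraries that stood apart at the low end were Trem2-KO 9-month replicate 3, App-KI 9-month replicate 2 and App-KI 3-month replicate 1. In bulk tissue, fewer cells of a type and less RNA per cell cannot be told apart.

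Fibroblast markers were set beside the label of the list. Col1a1, Col1a2, Col3a1, Dcn, Lum, Slc6a13 and Aldh1a2 were detected in every library, which is no check of the label, since they are in the list itself. Of the markers outside it, Slc47a1, a cation exporter of meningeal cells, averaged 5.41 ± 1.28 CPM in Trem2-KO and 2.76 ± 1.31 CPM in App-KI mice at 9 months. Lama1, a laminin of the pial basement membrane, averaged 3.56 ± 1.43 CPM in Trem2-KO and 2.93 ± 0.535 CPM in App-KI mice at that age. Pdgfra, which oligodendrocyte precursors express as well, averaged 53.4 ± 4.63 CPM in Trem2-KO and 55.9 ± 3.74 CPM in App-KI mice.

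Across the 12 libraries the genes moved largely as a block. The mean log2 CPM of the 35 genes was 4.05, 3.63 and 4.01 in the Trem2-KO libraries at 9 months, against 3.13, 3.21 and 2.82 in the App-KI libraries of that age. At 3 months it was 3.14, 2.81 and 2.69 in Trem2-KO and 3.23, 2.99 and 2.79 in App-KI libraries. The lowest Trem2-KO library at 9 months thus lay above the highest of the other 9 libraries, and the App-KI libraries at 9 months lay among those taken at 3 months. For 31 of the 35 genes the highest of the 12 libraries was a Trem2-KO library at 9 months, namely replicate 1 for 14 genes, replicate 2 for 1 gene and replicate 3 for 16 genes. That count was not made over all tested genes, and the list was chosen with the 9-month difference known. In 16 genes (1.99% of all tested genes) each of the 3 Trem2-KO libraries at 9 months exceeded each of the 9 others. These were Col1a2, Bgn, Aebp1, Fbln1, Ecm1, Aldh1a2, Slc6a20a, Slc6a12, Slc6a13, Slc13a4, Slc26a7, Osr1, Alx4, Foxc1, Colec12 and Islr.

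**Figure D1:**
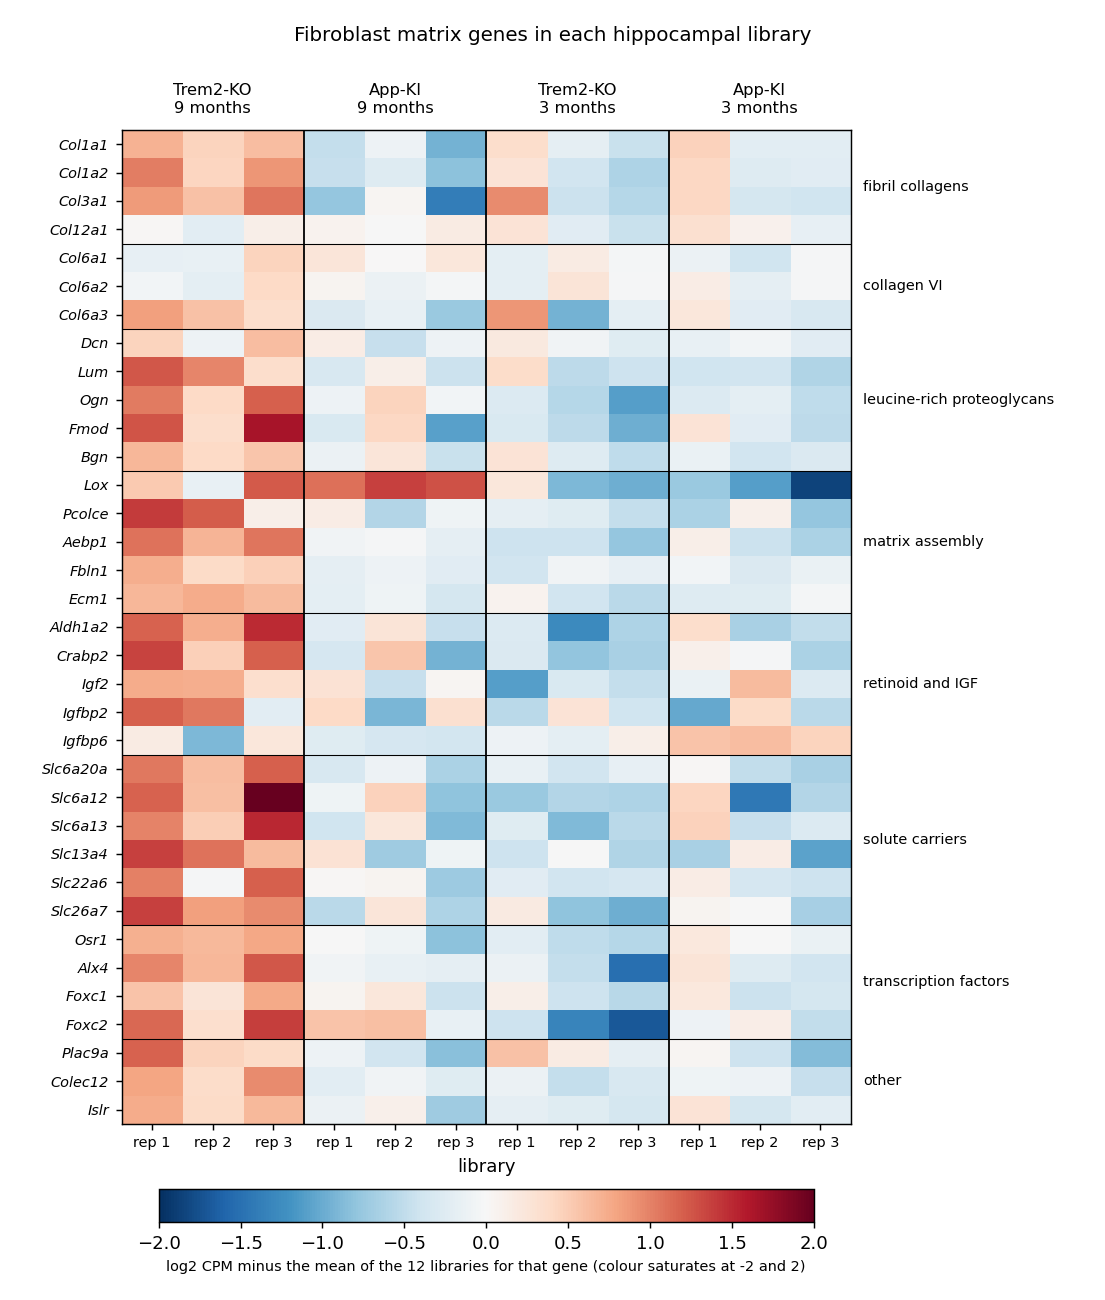
Level of each of the 35 genes (rows, grouped by role) in each of the 12 libraries (columns), as log2 CPM minus the mean of that gene over the 12 libraries. Red is above and blue below that mean. The Trem2-KO libraries at 9 months are red in most rows, while Col12a1, Col6a1, Col6a2, Lox and Igfbp6 depart from the block.

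The promoters of 6 genes are shown to set genes that were higher in Trem2-KO mice at 9 months beside Col6a1, which was not. Col1a2 and Col3a1 encode fibril-forming collagen chains, Col6a1 a chain of the beaded filament collagen VI, Aebp1 and Ecm1 secreted matrix proteins, and Slc6a20a a proline transporter. The sequences come from RefSeq on the mouse build GRCm38.p6 and run from 250 bases before to 50 bases after the annotated gene start. The deposited counts were made on GRCm39, so these positions hold for the older build only. The windows are chr6:4505368-4505667 on the plus strand for Col1a2, chr1:45311288-45311587 on the plus strand for Col3a1, chr10:76725995-76726294 on the minus strand for Col6a1, chr11:5861616-5861915 on the plus strand for Aebp1, chr3:95739520-95739819 on the minus strand for Ecm1, and chr9:123678783-123679082 on the minus strand for Slc6a20a. Capitals mark matches on either strand to 3 motifs, the TATA box TATAAA, the CCAAT box CCAAT and the GC box GGGCGG.
Col1a2: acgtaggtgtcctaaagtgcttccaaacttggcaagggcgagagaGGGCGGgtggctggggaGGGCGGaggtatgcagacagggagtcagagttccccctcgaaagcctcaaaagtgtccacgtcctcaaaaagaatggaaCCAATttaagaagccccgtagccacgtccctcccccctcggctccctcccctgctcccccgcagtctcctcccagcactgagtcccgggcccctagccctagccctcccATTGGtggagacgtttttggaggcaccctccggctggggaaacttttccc
Col3a1: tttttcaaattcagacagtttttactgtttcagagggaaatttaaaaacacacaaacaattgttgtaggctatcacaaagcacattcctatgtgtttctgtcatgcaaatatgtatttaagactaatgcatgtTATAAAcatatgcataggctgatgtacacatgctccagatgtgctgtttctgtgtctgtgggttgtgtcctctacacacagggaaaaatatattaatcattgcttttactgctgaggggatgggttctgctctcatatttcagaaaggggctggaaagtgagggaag
Col6a1: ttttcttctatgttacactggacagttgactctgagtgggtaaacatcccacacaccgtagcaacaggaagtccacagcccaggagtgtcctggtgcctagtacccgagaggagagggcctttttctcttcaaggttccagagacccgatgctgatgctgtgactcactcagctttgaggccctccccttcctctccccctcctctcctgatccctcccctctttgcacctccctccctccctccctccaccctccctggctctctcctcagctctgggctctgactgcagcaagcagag
Aebp1: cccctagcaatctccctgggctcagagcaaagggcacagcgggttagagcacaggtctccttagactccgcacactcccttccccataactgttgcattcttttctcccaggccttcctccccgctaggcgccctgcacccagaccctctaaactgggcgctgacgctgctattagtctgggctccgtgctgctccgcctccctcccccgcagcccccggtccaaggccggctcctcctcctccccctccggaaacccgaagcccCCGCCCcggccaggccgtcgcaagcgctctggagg
Ecm1: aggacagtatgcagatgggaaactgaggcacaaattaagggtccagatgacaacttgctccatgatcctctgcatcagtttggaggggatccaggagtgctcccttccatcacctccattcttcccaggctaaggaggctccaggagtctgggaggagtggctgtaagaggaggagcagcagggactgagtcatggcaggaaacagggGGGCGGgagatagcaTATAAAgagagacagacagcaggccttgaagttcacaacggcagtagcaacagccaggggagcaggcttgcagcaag
Slc6a20a: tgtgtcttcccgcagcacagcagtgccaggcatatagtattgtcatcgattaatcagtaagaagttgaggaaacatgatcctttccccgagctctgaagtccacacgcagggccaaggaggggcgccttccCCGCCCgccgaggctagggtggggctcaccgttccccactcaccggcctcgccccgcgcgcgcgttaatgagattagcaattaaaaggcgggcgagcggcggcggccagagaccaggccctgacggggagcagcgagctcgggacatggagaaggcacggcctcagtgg

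In the Col1a2 window both a forward CCAAT box, at -109, and a reversed one, at the start base 0, were found, with GC boxes at -205 and -188 (first base of the match as printed). The Col3a1 window holds a TATA box at -117, the Ecm1 window a TATA box at -27 and a GC box at -42, the Aebp1 window a reversed GC box at 15 and the Slc6a20a window a reversed GC box at -119. None of the 3 motifs is in the Col6a1 window. Of the 35 genes, 24 matched the promoter table, with 36 windows. A TATA box was present in 11.1% of these windows and in 13.6% of all 32851 windows of that length, a CCAAT box in 27.8% against 37.4%, and a GC box in 44.4% against 35.7%. The median GC content was 57.2% in the windows of the list and 52.7% in all windows. These matches describe letters only and show no binding.

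The chains of fibril collagens I and III were higher in Trem2-KO than in App-KI mice at 9 months, with log2 fold changes of 1.06 ± 0.27 for Col1a1, 1.29 ± 0.29 for Col1a2 and 1.43 ± 0.49 for Col3a1 (± SE, n = 3 each). Col1a2, a chain of type I collagen, had 46.6, 30.9 and 42.7 CPM in Trem2-KO and 16.8, 19.4 and 12.99 CPM in App-KI libraries at 9 months, and 27.8, 17.8 and 15.04 CPM in Trem2-KO and 30.6, 19.3 and 19.7 CPM in App-KI libraries at 3 months. The 9-month groups did not overlap, and the lowest Trem2-KO library lay just above the highest App-KI library at 3 months. Col3a1, the chain of type III collagen, had 13.7, 11.3 and 15.9 CPM in Trem2-KO and 4.43, 7.72 and 2.89 CPM in App-KI libraries at 9 months, and 14.6, 5.58 and 5.06 CPM in Trem2-KO and 10.1, 5.94 and 5.76 CPM in App-KI libraries at 3 months. The 9-month groups again did not overlap, but Trem2-KO 3-month replicate 1 was as high as the Trem2-KO libraries at 9 months. Col1a1, the partner chain of Col1a2, averaged 23.6 ± 2.06 CPM in Trem2-KO and 11.2 ± 3.21 CPM in App-KI mice at 9 months. The ratio of Col1a2 to Col1a1 in CPM was 1.84, 1.45 and 1.78 in Trem2-KO and 1.5, 1.34 and 1.61 in App-KI libraries at 9 months, so the chains of type I collagen moved nearly in step. Col12a1, a collagen that coats fibrils, did not share the pattern. It averaged 4.68 ± 0.548 CPM in Trem2-KO and 4.997 ± 0.299 CPM in App-KI mice at 9 months, with overlapping libraries and a log2 fold change of -0.09 ± 0.18. None of these 4 collagens was called at 9 months by edgeR (2.08% of all tested genes were), 3 had an unadjusted p under 0.05 (13.6% of all tested genes) and DESeq2 called 2 (3.16% of the genes it tested), where called means an adjusted p under 0.05 over all tested genes.

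Collagen VI forms beaded filaments from 3 chains, and its genes divided. Col6a1 had 40.2, 40.8 and 61.2 CPM in Trem2-KO and 53.2, 45.4 and 52.5 CPM in App-KI libraries at 9 months, and 39.5, 50.6 and 43.8 CPM in Trem2-KO and 41.6, 34.0 and 44.3 CPM in App-KI libraries at 3 months. The groups overlapped at both ages, and Trem2-KO 9-month replicate 3 stood above its group mates. Col6a2, which lies next to Col6a1 on chromosome 10, averaged 14.4 ± 3.21 CPM in Trem2-KO and 13.3 ± 0.821 CPM in App-KI mice at 9 months, also with overlap. Col6a3, the long chain, had 3.88, 3.31 and 2.81 CPM in Trem2-KO and 1.79, 1.98 and 1.31 CPM in App-KI libraries at 9 months, without overlap. Its log2 fold change at 9 months was 0.97 ± 0.34, beside -0.09 ± 0.18 for Col6a1 and 0.10 ± 0.15 for Col6a2. Per kilobase of exon, Col6a1 stood far above Col6a3 in both groups at 9 months, at 10.8 CPM in Trem2-KO and 11.5 CPM in App-KI mice for Col6a1 against 0.279 CPM in Trem2-KO and 0.142 CPM in App-KI mice for Col6a3.

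The small leucine-rich proteoglycans bind collagen fibrils and set their diameter, and all 5 had positive genotype differences at 9 months, with a median of 0.79 on the log2 scale. Fibromodulin, Fmod, had the largest of them, 1.363 ± 0.44. Its levels were 45.1, 24.2 and 59.0 CPM in Trem2-KO and 15.3, 25.3 and 8.86 CPM in App-KI libraries at 9 months. Trem2-KO replicate 2 lay within the App-KI range, so the groups overlapped. Biglycan, Bgn, had 18.4, 15.2 and 17.0 CPM in Trem2-KO and 10.7, 13.7 and 8.53 CPM in App-KI libraries at 9 months, without overlap (0.62 ± 0.18). Lumican, Lum, had 24.0, 19.98 and 12.9 CPM in Trem2-KO and 8.12, 11.05 and 7.54 CPM in App-KI libraries, also without overlap (1.09 ± 0.28). Osteoglycin, Ogn, averaged 34.6 ± 9.33 CPM in Trem2-KO and 19.9 ± 4.41 CPM in App-KI mice at 9 months, with overlap. Decorin, Dcn, the most abundant of these genes per kilobase of exon, differed least. It averaged 121 ± 29.6 CPM in Trem2-KO and 87.4 ± 18.0 CPM in App-KI mice at 9 months, with overlapping libraries and a log2 fold change of 0.47 ± 0.21. Ogn lies within another gene, Cenpp, on the opposite strand, and whether the counting used strand is not given in the sources used here.

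Secreted proteins that process and organise the matrix held 3 of the genes called at 9 months (2.08% of all tested genes were) and also the gene that ran the other way. Aebp1, a collagen-binding protein that assists fibril assembly, had 57.9, 43.5 and 56.9 CPM in Trem2-KO and 26.0, 26.7 and 24.1 CPM in App-KI libraries at 9 months, and 20.4, 20.4 and 16.0 CPM in Trem2-KO and 29.4, 20.2 and 17.5 CPM in App-KI libraries at 3 months. Every Trem2-KO library at 9 months was above all 9 others. Fibulin-1, Fbln1, a glycoprotein of basement membranes and elastic fibres, had 31.6, 24.7 and 26.6 CPM in Trem2-KO and 16.8, 17.8 and 16.2 CPM in App-KI libraries at 9 months, and 14.7, 18.0 and 17.0 CPM in Trem2-KO and 18.3, 15.5 and 17.4 CPM in App-KI libraries at 3 months. Here the other 3 groups lay within a narrow band. Ecm1, a secreted glycoprotein that binds other matrix proteins, had 16.3, 17.2 and 16.0 CPM in Trem2-KO and 8.96, 9.65 and 8.07 CPM in App-KI libraries at 9 months, and 10.8, 7.91 and 7.08 CPM in Trem2-KO and 8.56, 8.68 and 9.999 CPM in App-KI libraries at 3 months. The 3 Trem2-KO libraries at 9 months lay close together and apart from the rest. The log2 fold changes at 9 months were 1.04 ± 0.19 for Aebp1, 0.71 ± 0.10 for Fbln1 and 0.89 ± 0.13 for Ecm1.

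Lox, the lysyl oxidase that cross-links collagen and elastin, had 1.77, 1.10 and 2.86 CPM in Trem2-KO and 2.64, 3.16 and 2.95 CPM in App-KI libraries at 9 months, and 1.44, 0.659 and 0.626 CPM in Trem2-KO and 0.734, 0.571 and 0.341 CPM in App-KI libraries at 3 months. All 3 App-KI libraries at 9 months were above all App-KI libraries at 3 months, and Trem2-KO mice at 9 months spanned the gap. Its genotype difference at 9 months was -0.62 ± 0.32, the lowest of the 35, on 7 to 59 reads per library. Pcolce, which speeds the cleavage of procollagen, had 35.6, 31.3 and 14.7 CPM in Trem2-KO and 14.98, 9.01 and 12.8 CPM in App-KI libraries at 9 months. Its lowest Trem2-KO and its lowest App-KI library at 9 months were the libraries low in choroid plexus genes. Pcolce overlaps Fbxo24 on the same strand, so its reads may be shared.

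**Figure D2:**
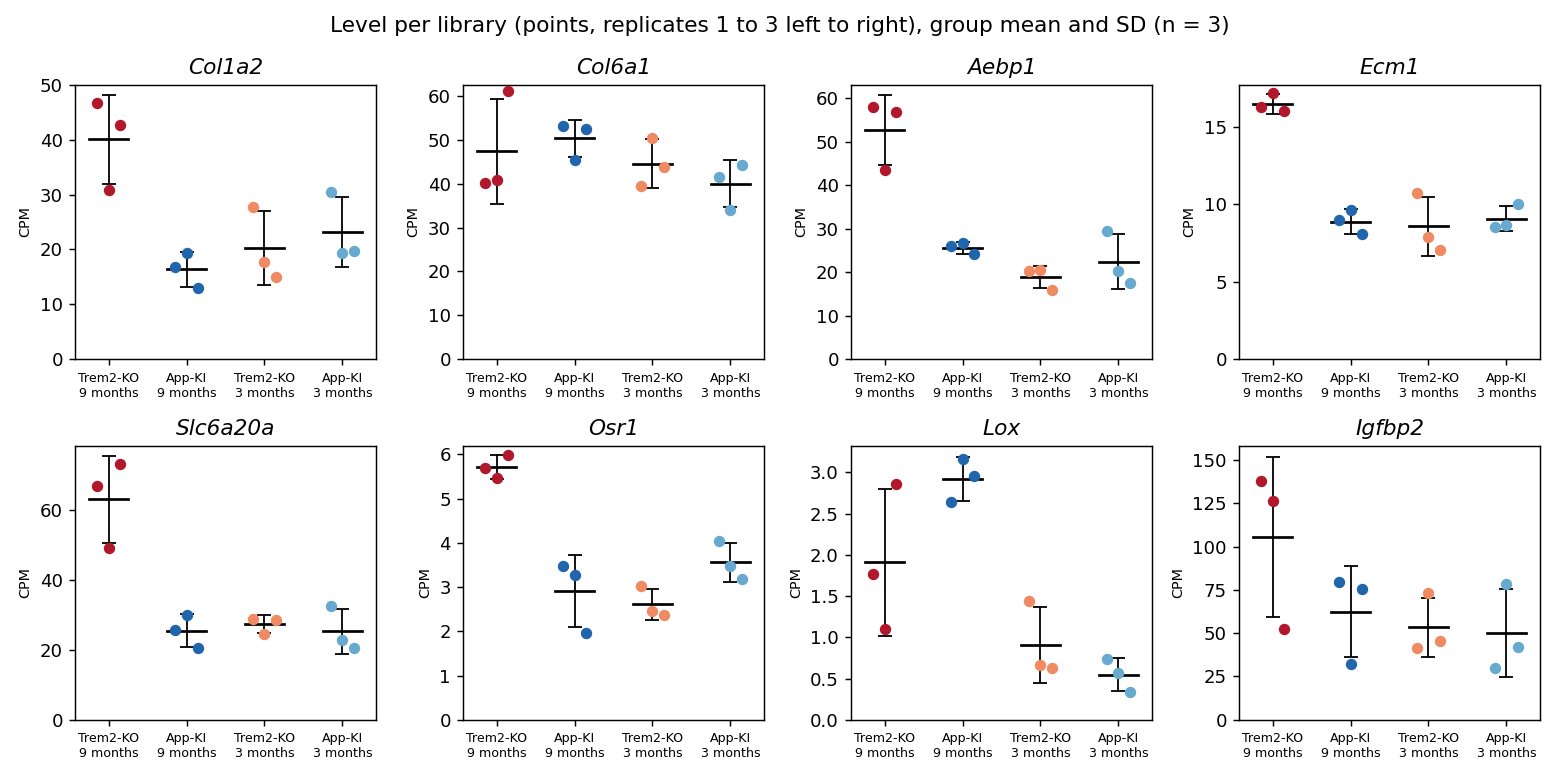
Level in CPM of 8 genes in each library (points, replicates 1 to 3 from left to right within a group), with the group mean (long bar) and SD (n = 3). Ecm1, Aebp1, Osr1 and Slc6a20a have all 3 Trem2-KO libraries at 9 months above all others, Col6a1 does not separate the groups, Lox is highest in App-KI mice at 9 months, and Igfbp2 spreads widely within groups.

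Genes of retinoic acid and of insulin-like growth factors were not called at 9 months by edgeR (2.08% of all tested genes were). Of the 5, 3 had an unadjusted p under 0.05 (13.6% of all tested genes) and 2 were called by DESeq2 (3.16% of the genes it tested). Aldh1a2, which makes retinoic acid in the meninges, had 24.9, 18.2 and 30.8 CPM in Trem2-KO and 9.33, 13.1 and 7.94 CPM in App-KI libraries at 9 months, and 9.04, 4.53 and 7.13 CPM in Trem2-KO and 14.0, 6.96 and 7.80 CPM in App-KI libraries at 3 months. All Trem2-KO libraries at 9 months exceeded the others, with a log2 fold change of 1.27 ± 0.35 at 9 months. Crabp2, which carries retinoic acid to its nuclear receptor, averaged 4.73 ± 1.39 CPM in Trem2-KO and 2.10 ± 1.10 CPM in App-KI mice at 9 months, with overlap. Igf2, a growth factor, averaged 2.26 ± 0.347 CPM in Trem2-KO and 1.46 ± 0.363 CPM in App-KI mice at 9 months, without overlap, on 10 to 56 reads per library. The antisense transcript Igf2os overlaps it.

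The binding proteins of these growth factors differed from the block. Igfbp2 had 138, 126 and 52.3 CPM in Trem2-KO and 79.5, 32.1 and 75.6 CPM in App-KI libraries at 9 months, and 41.7, 73.0 and 45.8 CPM in Trem2-KO and 29.8, 78.4 and 41.8 CPM in App-KI libraries at 3 months. The low value of the Trem2-KO and of both App-KI groups was in each case the library low in choroid plexus genes, and the groups overlapped at both ages. Igfbp6 had 10.3, 4.94 and 10.7 CPM in Trem2-KO and 7.75, 7.24 and 7.15 CPM in App-KI libraries at 9 months, and 8.57, 8.0 and 9.98 CPM in Trem2-KO and 13.7, 14.0 and 12.5 CPM in App-KI libraries at 3 months. App-KI mice at 3 months were thus the highest group for Igfbp6, above every other library. Its scaled profile was the farthest of the 35 genes from the mean profile of the list, with a mean squared distance of 2.10 over the 12 libraries, against 0.0669 for the nearest, Colec12.

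The 6 solute carriers had the highest median genotype difference of the 8 role groups at 9 months, 1.31 on the log2 scale. Slc6a20a, which imports proline, had 66.99, 49.3 and 73.3 CPM in Trem2-KO and 25.7, 30.1 and 20.7 CPM in App-KI libraries at 9 months, and 29.0, 24.5 and 28.7 CPM in Trem2-KO and 32.6, 22.8 and 20.5 CPM in App-KI libraries at 3 months. All 3 Trem2-KO libraries at 9 months stood above the rest (1.30 ± 0.22). Several annotated genes overlap it on the opposite strand, Ccr9 among them. Slc26a7, an anion exchanger, had 5.16, 3.55 and 3.87 CPM in Trem2-KO and 1.37, 2.36 and 1.31 CPM in App-KI libraries at 9 months, without overlap (1.31 ± 0.29). Slc6a13 and Slc6a12, neighbouring genes for transporters of GABA, taurine and betaine, differed by 1.33 ± 0.38 and 1.49 ± 0.49. In Slc6a12 the 9-month libraries had 4.15, 2.78 and 8.33 CPM in Trem2-KO and 1.74, 2.52 and 1.05 CPM in App-KI mice, a narrow separation. Slc13a4, a sulfate transporter, had 82.8, 68.1 and 49.6 CPM in Trem2-KO and 39.3, 19.5 and 30.2 CPM in App-KI libraries at 9 months. Its groups did not overlap, and at 9 months its lowest library in each group was the one low in choroid plexus genes. Slc22a6, an organic anion transporter, averaged 16.6 ± 6.43 CPM in Trem2-KO and 8.36 ± 2.30 CPM in App-KI mice at 9 months, with overlap.

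Of the 4 transcription factors, Osr1 and Alx4 were called at 9 months (2.08% of all tested genes were). Osr1, a zinc finger factor of mesenchyme, had 5.69, 5.46 and 5.99 CPM in Trem2-KO and 3.48, 3.27 and 1.97 CPM in App-KI libraries at 9 months, and 3.01, 2.46 and 2.36 CPM in Trem2-KO and 4.04, 3.48 and 3.17 CPM in App-KI libraries at 3 months. Its Trem2-KO libraries were the highest of all at 9 months and were below every App-KI library at 3 months. Alx4, a homeobox factor of cranial mesenchyme that overlaps Ext2 on the opposite strand, had 3.49, 2.83 and 4.19 CPM in Trem2-KO and 1.69, 1.61 and 1.57 CPM in App-KI libraries at 9 months, without overlap. Their log2 fold changes at 9 months were 0.96 ± 0.19 and 1.10 ± 0.27. Foxc1, a forkhead factor needed to form the meninges, averaged 11.4 ± 1.97 CPM in Trem2-KO and 7.73 ± 1.73 CPM in App-KI mice at 9 months, with 9.34 CPM in the lowest Trem2-KO and 9.22 CPM in the highest App-KI library. Foxc2, its close relative, averaged 2.23 ± 0.757 CPM in Trem2-KO and 1.43 ± 0.384 CPM in App-KI mice at 9 months, with overlap and on 7 to 55 reads per library.

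The remaining genes encode secreted or surface proteins. Colec12, a scavenger receptor with a collagen-like stalk, had 31.5, 23.5 and 34.8 CPM in Trem2-KO and 15.6, 17.2 and 15.4 CPM in App-KI libraries at 9 months, and 16.7, 13.01 and 14.5 CPM in Trem2-KO and 17.2, 16.9 and 13.2 CPM in App-KI libraries at 3 months. The Trem2-KO libraries at 9 months stood apart (0.89 ± 0.14). Plac9a had 7.46, 4.46 and 4.30 CPM in Trem2-KO and 3.06, 2.52 and 1.84 CPM in App-KI libraries at 9 months (1.12 ± 0.28). It has a near-identical copy, Plac9b, so the division of reads between them is uncertain. Islr, a marker of mesenchymal stromal cells, averaged 24.2 ± 2.96 CPM in Trem2-KO and 13.9 ± 3.79 CPM in App-KI mice at 9 months, without overlap (0.79 ± 0.20), and its neighbour Islr2 overlaps it.

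Over the whole list, 9 of 35 genes were called higher in Trem2-KO than in App-KI mice at 9 months and 0 lower, in the quasi-likelihood fit of edgeR, where 2.08% of all tested genes were called (0.684% higher and 1.39% lower). Since the list was made with this comparison in view, nothing is read from that count. The median log2 fold change was 0.97, against 0.01 for all tested genes, and 32 of 35 values were above 0 (51.8% of all genes). DESeq2 called 19 of the 35 (3.16% of the genes it tested). The groups did not overlap, with Trem2-KO higher, in 22 genes (8.28% of all genes), and in 0 with Trem2-KO lower (9.04%). The 3 negative values were those of Col12a1, Col6a1 and Lox. Levels compared per kilobase of exon at 9 months were led by Igfbp2, at 57.1 CPM in Trem2-KO and 33.8 CPM in App-KI mice, followed by Dcn at 20.7 CPM in Trem2-KO and 14.97 CPM in App-KI mice. Slc6a20a came next in Trem2-KO mice at 15.5 CPM, against 6.24 CPM in App-KI mice. Col6a3 was the lowest in both groups at 9 months. Next above it was Col12a1 in Trem2-KO mice, at 0.307 CPM per kilobase, and Alx4 in App-KI mice, at 0.230 CPM per kilobase.

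The calls rested on single libraries to differing degrees. Leaving out each of the 12 libraries in turn gave 3 to 12 called genes at 9 months, against 9 with all of them (2.08% of all genes). The omission of App-KI 9-month replicate 3 gave 3 (0.89% of all genes), that of App-KI 9-month replicate 1 gave 4 (1.23%), and that of Trem2-KO 9-month replicate 1 gave 4 (1.1%). Fbln1, Ecm1 and Colec12 were called in all 12 of these fits, Osr1 in 11, Slc6a20a and Slc26a7 in 9 each, Aebp1 in 8, Alx4 in 7 and Plac9a in 6. The median over the list ran from 0.86 to 1.04. App-KI 9-month replicate 3, whose omission cost most calls, was the lowest of the 12 libraries for 9 of the 35 genes.

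**Figure D3:**
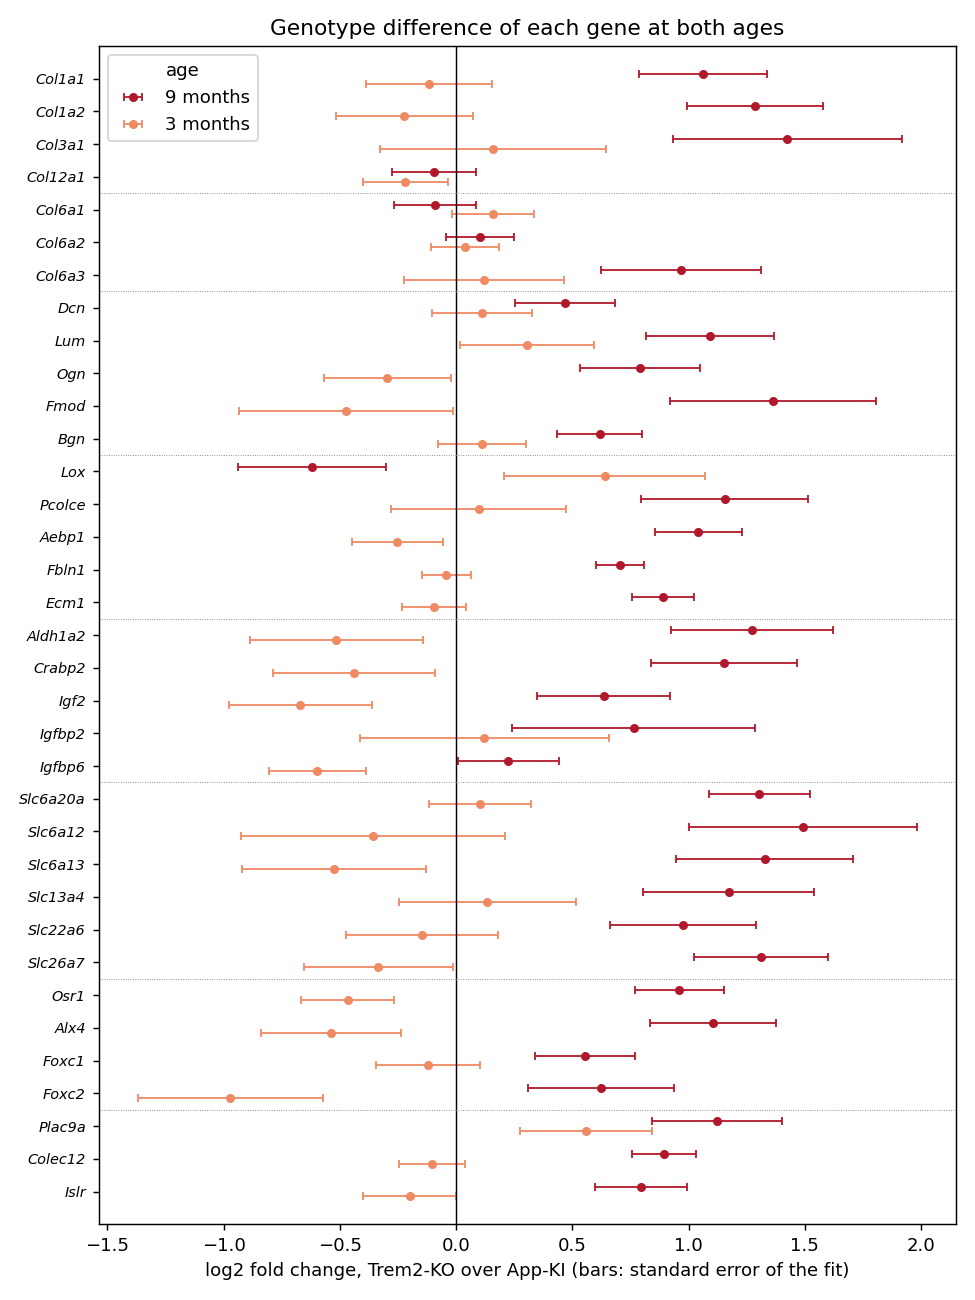
Log2 fold change of Trem2-KO over App-KI for each gene at 9 months (dark red points) and at 3 months (orange points), with the SE of the fit (n = 3 libraries per group). At 9 months 32 of 35 points lie to the right of 0, while at 3 months 13 of 35 do.

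At 3 months, the question was whether the fibroblast genes already differed without Trem2 at the earlier age. No gene of the list was called: the quasi-likelihood test of edgeR, adjusted by Benjamini-Hochberg, called 0 of 35 (0.59% of all tested genes, 0.167% higher and 0.423% lower), 4 had an unadjusted p under 0.05 (11.2% of all genes), and DESeq2 called 0 (1.64% of the genes it tested). The median log2 fold change was -0.12, against 0.00 for all tested genes, and 13 of 35 values were above 0 (50.7% of all genes). The sign of that median rested on single libraries: omitting App-KI 3-month replicate 1 gave 0.01, and omitting the 3 libraries low in choroid plexus genes gave 0.02. It was -0.32 without Trem2-KO 3-month replicate 1, -0.06 without Trem2-KO 3-month replicate 3, -0.22 without App-KI 3-month replicate 2 and -0.235 without App-KI 3-month replicate 3. The 4 genes with an unadjusted p under 0.05 all had negative values. They were Igfbp6 (-0.60 ± 0.21, adjusted p = 0.271), Foxc2 (-0.97 ± 0.40, adjusted p = 0.349), Osr1 (-0.47 ± 0.20, adjusted p = 0.376) and Igf2 (-0.67 ± 0.31, adjusted p = 0.413), all by edgeR. Igfbp6 was called with no filter on low counts, with only the 3-month groups in the fit, and without Trem2-KO 9-month replicate 2. Igfbp6, Igf2 and Osr1 were the 3 genes whose groups did not overlap (8.94% of all genes for lower values), each lower in Trem2-KO. In 0 genes did the Trem2-KO libraries all exceed the App-KI libraries (8.65% of all genes).

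The 95% intervals of the 3-month difference (t distribution with 8 residual degrees of freedom) ran from -0.29 to 0.20 for Fbln1, from -0.41 to 0.22 for Ecm1, from -0.43 to 0.22 for Colec12, from -0.70 to 0.20 for Aebp1 and from -0.40 to 0.61 for Slc6a20a. For genes with a larger spread the interval was wide, from -0.96 to 1.28 for Col3a1 and from -1.11 to 1.357 for Igfbp2. These intervals are not those of edgeR's test and can disagree with it. For Igf2 the interval ran from -1.38 to 0.04, while the unadjusted p of edgeR's quasi-likelihood F-test was 0.0415.

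Between ages, 20 of the 35 genes were called in Trem2-KO mice and 2 in App-KI mice. In Trem2-KO mice all 20 were higher at 9 than at 3 months (5.68% of all tested genes) and 0 lower (3.02%, or 8.7% in either direction). The median was 1.06 against 0.00 for all genes, and 34 values were above 0 (50.4% of all genes). The libraries of the ages did not overlap, with 9 months higher, in 24 genes (13.5% of all genes). The largest values were those of Foxc2 (2.13 ± 0.36), Slc6a12 (2.09 ± 0.51), Aldh1a2 (1.86 ± 0.36) and Fmod (1.76 ± 0.45). All 4 transcription factors were called, 4 of 5 proteoglycans, 4 of 6 solute carriers, 3 of 5 matrix assembly genes and 3 of 5 retinoid and growth factor genes, but 0 of the 4 fibril collagens, Col12a1 included, and 0 of the 3 collagen VI genes in the edgeR fit. Among the collagens Col1a2 had 1.01 ± 0.29 and Col1a1 0.66 ± 0.27. Leaving out Trem2-KO 3-month replicate 3, replicate 2 or Trem2-KO 9-month replicate 1 gave 11 (3.96% of all genes), 12 (5.36%) and 13 (8.21%) calls.

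In App-KI mice 2 of 35 genes were called between ages (6.66% of all tested genes, 3.95% higher and 2.71% lower). The median was 0.01, and 18 values were above 0 (49.7% of all genes). Without 1 App-KI library the median ran from -0.09 (without 3-month replicate 3) to 0.13 (without 3-month replicate 1), below 0 also without 3-month replicate 2, 9-month replicate 1 or 9-month replicate 2, and at 0.11 without 9-month replicate 3. Lox was higher at 9 than at 3 months by 2.39 ± 0.38 and Igfbp6 was lower by a log2 fold change of -0.86 ± 0.21. The call of Igfbp6 was lost without any single App-KI library, while that of Lox was kept in those 6 fits. The libraries of the ages did not overlap, with 9 months higher, in Col6a1, Ogn and Lox (11.2% of all genes for higher values) and, with 9 months lower, in Igfbp6 (11.5% for lower values). The type I and III collagens had negative values of -0.52 ± 0.28 for Col1a1, -0.50 ± 0.30 for Col1a2 and -0.53 ± 0.51 for Col3a1, with overlapping libraries.

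The interaction compares the age difference in Trem2-KO with that in App-KI mice. It was called for 4 of 35 genes, all higher (0.0574% of all tested genes, or 0.266% in either direction): Osr1 (1.43 ± 0.28), Colec12 (0.998 ± 0.20), Ecm1 (0.98 ± 0.19) and Fbln1 (0.75 ± 0.15). The median interaction over the list was 1.06 and 33 values were above 0 (51.6% of all genes), with Lox (-1.26 ± 0.54) and Col6a1 (-0.25 ± 0.25) below it. Without App-KI 9-month replicate 3 edgeR called it for 0 genes of the list (0.163% of all genes), and likewise without Trem2-KO 3-month replicate 3 (0.149%). In both fits 20 genes of the list were under 0.05 before adjustment. With all libraries 23 of the 35 were, against 6.04% of all tested genes. It was called for 1 gene each without App-KI 9-month replicate 1 (0.198% of all genes) or Trem2-KO 3-month replicate 2 (0.18%), and for 2 each without App-KI 3-month replicate 1 (0.247%) or Trem2-KO 9-month replicate 1 (0.217%). DESeq2 called it for 7 genes with all libraries (0.572% of the genes it tested). This comparison, the age comparisons and the one at 9 months share libraries, so they are not separate evidence.

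Genes of the same tissue outside the list followed to differing degrees at 9 months. Among 33 further genes of meningeal barrier and fibroblast identity, 5 were called higher and 0 lower in Trem2-KO mice, with a median of 0.78. Of all tested genes 0.684% were called higher and 1.39% lower. Wnt6, a signalling ligand, averaged 2.11 ± 0.717 CPM in Trem2-KO and 0.783 ± 0.218 CPM in App-KI mice, and Bmp7, a growth factor of meninges and choroid plexus, 29.9 ± 5.91 CPM in Trem2-KO and 15.4 ± 1.69 CPM in App-KI mice. The others called were Tbx18, Zic2 and Thbd. Cdh1, the cadherin of arachnoid barrier cells, had the largest value of that list, 1.70 ± 0.52, but was not called. Ptgds, the prostaglandin D synthase made by arachnoid cells, choroid plexus and oligodendrocytes, averaged 1118 ± 465 CPM in Trem2-KO and 468 ± 181 CPM in App-KI mice (1.25 ± 0.40). Among 33 further matrix genes the median was 0.32, with 2 called higher, Thbs2 (0.82 ± 0.12), a thrombospondin, and Serpinf1 (0.45 ± 0.10), and 0 lower. The abundant Sparc (-0.02 ± 0.06) and Timp2 (-0.09 ± 0.09), which glia and vessels also express, had values near 0.

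Of 19 genes of the machinery that modifies and exports collagen, 1 was called higher at 9 months, Colgalt1 (0.27 ± 0.07), and 1 lower, Plod1 (-0.42 ± 0.08), with a median of 0.03. The shares among all tested genes were 0.684% higher and 1.39% lower. DESeq2 called 3 of the 19 (3.16% of the genes it tested), and 8 were under 0.05 before adjustment in edgeR (13.6% of all tested genes). The largest value was that of Loxl2, a lysyl oxidase, 1.23 ± 0.46. Plod1, a lysyl hydroxylase of collagen, averaged 34.7 ± 1.26 CPM in Trem2-KO and 46.7 ± 5.84 CPM in App-KI mice at 9 months, and 34.9 ± 0.762 CPM in Trem2-KO and 47.7 ± 3.92 CPM in App-KI mice at 3 months. Plod1 was thus lower at both ages, with adjusted p = 0.0129 at 3 months in the edgeR fit. The abundant P4hb, a subunit of prolyl hydroxylase, had -0.03 ± 0.05 and Sec23a, a coat protein of export vesicles, 0.06 ± 0.05. Of 14 further retinoid genes edgeR called 0, with 4 under 0.05 before adjustment and 0 called by DESeq2. Of 10 further genes of the growth factor system edgeR called 0, with 4 under 0.05 before adjustment and 2 called by DESeq2. Their medians were 0.27 and 0.01. Igf1, a growth factor of microglia and neurons, had -0.47 ± 0.13. Genes called here but not among the most changed or most abundant of their lists (Tbx18, Zic2, Thbd, Bmp7, Thbs2, Serpinf1, Colgalt1, Plod1), and Slc47a1, Lama1, Pdgfra and Mrc1, were named after their values were seen.

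Markers of border macrophages and, to a lesser degree, of vessels were also higher in Trem2-KO mice at 9 months. Choroid plexus genes had a larger median genotype difference than either, 1.06, and are described separately below. Erythroid, astrocyte and hippocampal neuron genes had median genotype differences of 0.07, -0.05 and 0.07. The 10 genes of border macrophages, which live beside meningeal fibroblasts, had a mean log2 CPM of 1.72, 1.31 and 1.63 in Trem2-KO and 0.83, 1.05 and 0.31 in App-KI libraries, and 0.65, 0.42 and 0.40 in Trem2-KO and 1.22, 0.54 and 0.70 in App-KI libraries at 3 months. Their median genotype difference at 9 months was 0.87 with all 10 values above 0. Clec10a, a lectin, was called higher (1.97 ± 0.51). Mrc1, the mannose receptor, averaged 8.11 ± 0.966 CPM in Trem2-KO and 4.41 ± 1.74 CPM in App-KI mice. Among 18 endothelial genes the median was 0.25 with 3 called higher (0.684% of all tested genes). Among these was Kdr, a receptor of vascular endothelial growth factor, at 31.6 ± 2.62 CPM in Trem2-KO and 22.1 ± 1.39 CPM in App-KI mice. Vwf, the clotting factor of larger vessels, averaged 55.6 ± 3.73 CPM in Trem2-KO and 26.6 ± 9.15 CPM in App-KI mice (1.05 ± 0.31, not called). Mural cell genes had a median of 0.33 with 1 of 16 called higher, and vascular basement membrane genes a median of 0.42 with 3 of 10 called higher, Col18a1 (0.81 ± 0.20) and Nid1 (0.53 ± 0.13) among them. The main collagens of that membrane, Col4a1 (0.03 ± 0.08) and Col4a2 (-0.13 ± 0.07), had values near 0. Of 5 erythroid genes edgeR called 0, with 0 under 0.05 before adjustment and 0 called by DESeq2. Their summed level was 7.06 to 16.5 CPM in Trem2-KO and 6.33 to 15.02 CPM in App-KI mice at 9 months. Of 8 astrocyte genes 1 was called lower, Aqp4 (-0.25 ± 0.06), and of 11 genes of hippocampal neurons 1, Wfs1 (-0.33 ± 0.08), against 1.39% of all tested genes. Of 9 marker genes of neighbouring brain tissue edgeR called 0, with 0 under 0.05 before adjustment, 0 called by DESeq2 and a median of -0.16. Whether more meninges and large vessel were taken with the Trem2-KO hippocampi at 9 months, or the tissue itself differed, cannot be told apart, since markers of meninges, border macrophages and vessels are higher in the same 3 libraries and the labels record no dissection batch.

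**Figure D4:**
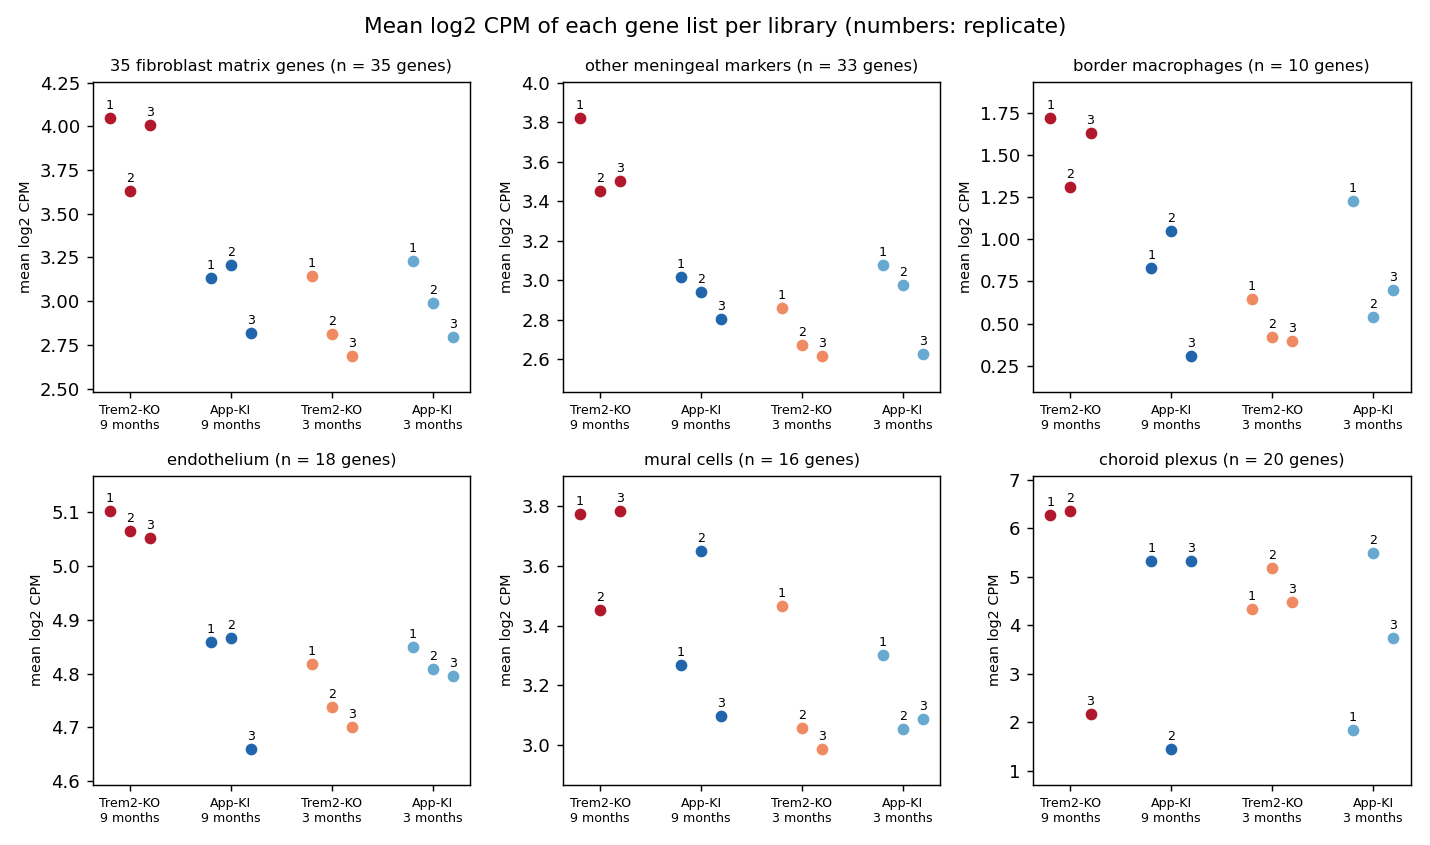
Mean log2 CPM of 6 gene lists in each library (numbers give the replicate). The list of 35 genes, the other meningeal markers, the border macrophage and the endothelial genes have all 3 Trem2-KO libraries at 9 months on top, mural cell genes overlap, and choroid plexus genes drop in 3 libraries of different groups.

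Choroid plexus genes differed from the list in their pattern over replicates and in their calls, but had a similar median genotype difference at 9 months. At 9 months their mean log2 CPM was 6.28, 6.35 and 2.17 in Trem2-KO and 5.33, 1.44 and 5.33 in App-KI libraries, and at 3 months 4.33, 5.17 and 4.48 in Trem2-KO and 1.84, 5.49 and 3.73 in App-KI libraries. The median of their genotype differences at 9 months was 1.06, against 0.97 for the list, and 20 of 20 values were above 0 (51.8% of all genes). Of these genes edgeR called 0 of 20, 0 had an unadjusted p under 0.05 and DESeq2 called 0. In the 3 libraries low in choroid plexus genes, all 20 of these were below the mean of the group mates, with median log2 differences of -4.26, -4.00 and -2.96 in Trem2-KO 9-month replicate 3, App-KI 9-month replicate 2 and App-KI 3-month replicate 1. The corresponding medians of the 35 genes were 0.27, 0.35 and 0.36, in the opposite direction. In all 3 libraries 19 of the 35 were higher than in the group mates, against 2531 of all 19152 tested genes. Pcolce, Igf2, Igfbp2 and Slc13a4 were lower in all 3, which is 4 of the 35 against 2706 of the 19152. Nothing is read from that count of 4. Igfbp2 was lower by log2 differences of -1.33, -1.27 and -0.94 and Slc13a4 by -0.60, -0.82 and -0.18. Igf2, Igfbp2 and Slc13a4 are known to be expressed in choroid plexus as well, and how much of their signal came from it was not tested.

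Without these 3 libraries, a choice made after seeing the data, the list kept its median at 9 months (0.97), and 16 of 35 genes were called higher and 0 lower (2.65% of all tested genes). Lum had 1.49 ± 0.25 and Crabp2 1.58 ± 0.33 in the fit without them, while Col6a1 had -0.39 ± 0.12, Col6a2 -0.14 ± 0.15 and Dcn 0.16 ± 0.23. With the choroid plexus score as a covariate 19 genes were called higher (2.73% of all tested genes). The interaction was called for 1 gene without the 3 libraries (0.216% of all tested genes). The median genotype difference of the list at 9 months was as large without the libraries that stood apart as with them. Their omission did not balance choroid plexus between the genotypes. The mean log2 CPM of its genes in the remaining 9-month libraries was 6.28 and 6.35 in Trem2-KO and 5.33 and 5.33 in App-KI mice. The part of choroid plexus in the list's difference was not tested.

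**Figure D5:**
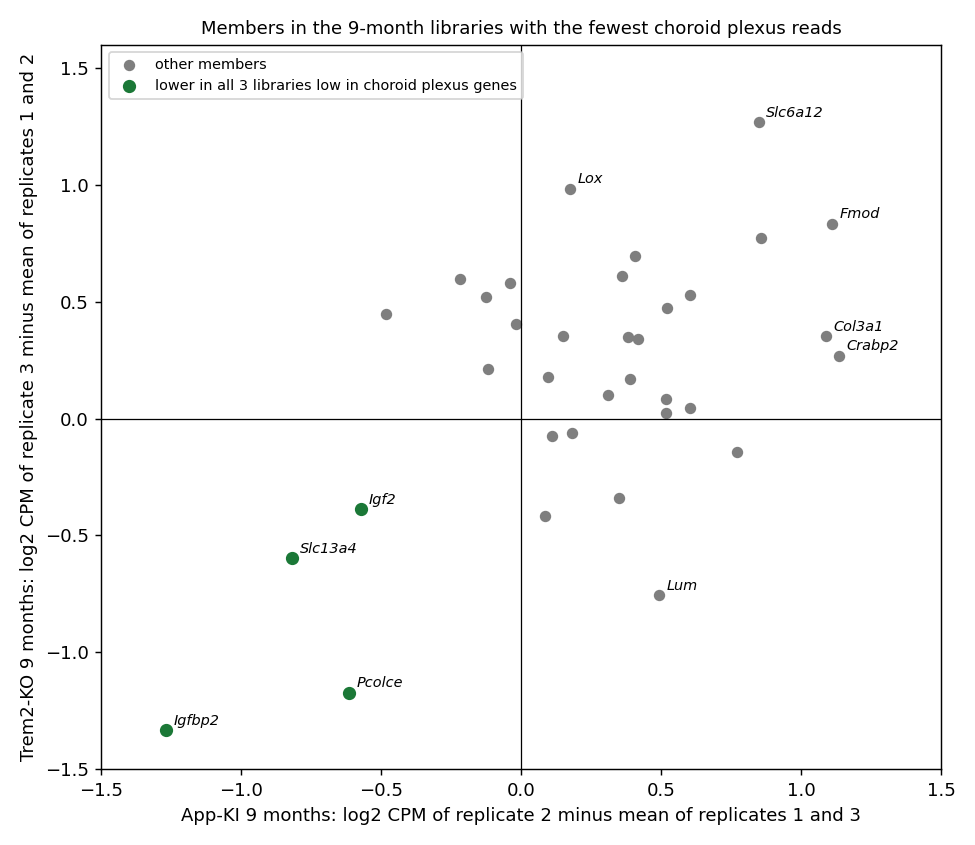
Each point is 1 of the 35 genes. The horizontal axis gives log2 CPM in App-KI 9-month replicate 2 minus the mean of its group mates, and the vertical axis the same for Trem2-KO 9-month replicate 3; both libraries are low in choroid plexus genes. Most points lie above 0 on both axes, while Igfbp2, Pcolce, Slc13a4 and Igf2 (green) lie below 0 on both.

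Outside all lists, the 10 genes whose scaled profile over the 12 libraries lay nearest to the mean profile of the 35 genes were Cp, Serping1, Fcgrt, Slc13a3, Pear1, Casp12, Slc22a8, Eya2, Reck and Ranbp3l, with mean squared distances of 0.0562 to 0.142. Cp, the copper-carrying ferroxidase ceruloplasmin, averaged 43.4 ± 3.24 CPM in Trem2-KO and 24.6 ± 5.35 CPM in App-KI mice at 9 months, and 20.2 ± 4.39 CPM in Trem2-KO and 21.9 ± 2.83 CPM in App-KI mice at 3 months. Serping1, an inhibitor of the complement C1 proteases, averaged 33.7 ± 4.54 CPM in Trem2-KO and 17.8 ± 2.59 CPM in App-KI mice at 9 months. Slc22a8, an organic anion transporter related to Slc22a6, averaged 48.8 ± 8.67 CPM in Trem2-KO and 25.9 ± 4.05 CPM in App-KI mice at that age. These genes were picked for their likeness to the list, so their values are a description. Among the 35 genes themselves Colec12 and Aebp1 lay nearest to the mean profile, at 0.0669 and 0.0727, and Igfbp6, Col6a1, Col6a2 and Col12a1 farthest from it.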

How the data were processed

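The authors deposited raw read counts per gene for 12 libraries, whole numbers that sum to 14627892 to 24594655 per library. Per the labels' protocols, libraries were made with the SMART-Seq mRNA LP kit from column-purified hippocampal RNA. Per the submitters' processing notes, STAR 2.7.10a, featureCounts 2.0.3, R 4.2.0, DESeq2 1.36.0 and the build GRCm39 were used. Not given in the sources used here are their roles and settings, strand use, annotation release and the treatment of ambiguous reads. Counts of overlapping, antisense or near-identical genes are therefore uncertain.

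Symbols came from GENCODE M21 (GRCm38) for 52073 of 56980 identifiers, and exon lengths per gene from the same annotation. The other 4907 identifiers took no more than 0.252% of any library. The low-count filter was filterByExpr of edgeR with a minimum count of 10 and a minimum total of 15, which left 19152 genes. The fit had 1 term per group over all libraries (8 residual degrees of freedom), with scaling by trimmed mean of M-values and edgeR's robust quasi-likelihood F-test (edgeR 4.0.16, R 4.3.3), with p-values adjusted by Benjamini-Hochberg across the 19152 genes. Log2 fold changes are not shrunk, and their SE follows from the F statistic. DESeq2 1.42.0 was an alternative. List scores are means of log2 CPM with a prior count of 2. Replicates of a group differed by 3.04 to 16.98 times the sampling noise (chi-square per degree of freedom), so no library was counted as a repeat of another. The test was checked on simulated counts.

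The 35 genes and the companion lists were chosen with earlier results of these data known. Genes of a companion list could be named if among the 3 with the largest genotype difference at 9 months or the 2 most abundant. Not all such genes are named, and none of the retinoid, choroid plexus, mural cell, erythroid and neighbouring tissue lists. Trem2 and the 10 genes outside all lists with the nearest profile are named too. Others are named as chosen after their values were seen. The alternatives tried were DESeq2, DESeq2 size factors, upper quartile scaling, no filter, only the groups compared, a choroid plexus covariate and leaving out each library. No sequence from chromosome 18 is printed. The result of 1 gene of the companion lists is not reported here.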

Additional observations from a re-analysis of the deposited data

Results flagged for a closer look

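The interaction term of edgeR's quasi-likelihood fit had an adjusted p under 0.05 in 4 of the 35 fibroblast genes and in 1 gene of the companion lists. Among all tested genes the share was 0.266%. The lists were chosen with earlier results of these data known, and the interaction contains the 9-month difference, so these values are a description. The interaction was 1.43 for Osr1, 0.998 for Colec12, 0.98 for Ecm1 and 0.75 for Fbln1 on the log2 scale, and 0.82 for Kdr, an endothelial receptor. In each the 9-month minus 3-month difference was higher in Trem2-KO mice. Of the fits that left out 1 library each, Osr1 was called in 8 of 12, Ecm1 in 7, Fbln1 in 4 and Colec12 in 3. The markers of border macrophages and endothelium were higher in the same 3 Trem2-KO libraries at 9 months, and their part in these differences was not tested.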

How the results depend on the processing

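No paired analysis was possible because the labels give a mouse identifier for each library and no replicate number shared between groups. Trem2 kept its sign in each alternative run, and its genotype difference was called at both ages in all 12 fits that left out 1 library. The medians over the 35 genes for the genotypes at 9 months, the ages in Trem2-KO mice and the interaction kept their sign in each alternative run. They moved by less than the spread of the list score between replicates. The medians near 0 changed sign: that at 3 months (-0.12) ran from -0.32 to 0.01 when 1 library was left out and was 0.02 without the 3 libraries low in choroid plexus genes, and that between ages in App-KI mice (0.01) ran from -0.09 to 0.13. Counts of called genes also moved. At 9 months 9 genes of the list were called, against 19 with DESeq2 (3.16% of all genes), 16 with no filter on low counts (2.18%), 19 with the choroid plexus covariate (2.73%) and 16 without the 3 libraries (2.65%). At 3 months 1 gene, Igfbp6, was called lower with no filter (0.91% of all genes), with only the groups compared (1.19%) and without Trem2-KO 9-month replicate 2 (0.68%), against 0. Between ages in App-KI mice 1 gene was called without the 3 libraries (4.24%), against 2. The interaction was called for 7 genes with DESeq2 (0.572%), 10 with no filter (0.49%), 9 with the covariate (0.428%) and 1 without the 3 libraries (0.216%), against 4 (0.266%). In the companion lists at 9 months 31 genes were called with DESeq2 (3.16% of all genes), 39 with no filter (2.18%) and 31 with the covariate (2.73%), against 19 (2.08%). DESeq2 size factors and upper quartile scaling moved no count by over 1.5 times. The causes of these shifts were not tested.

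Leaving out each library in turn gave 3 to 12 calls at 9 months, 0 to 1 at 3 months, 11 to 20 between ages in Trem2-KO mice, 1 to 2 in App-KI mice, 0 to 6 for the interaction and 6 to 20 in the companion lists (6 without App-KI 9-month replicate 3, 8 without Trem2-KO 9-month replicate 1 and 9 without App-KI 9-month replicate 1). With all libraries, the shares of all tested genes called were 2.08% at 9 months and 0.59% at 3 months. They were 8.7% between ages in Trem2-KO mice, 6.66% in App-KI mice and 0.266% for the interaction. The SE of a genotype difference at 3 months ran from 0.11 to 0.57 with a median of 0.29 on the log2 scale, which limits what 3 libraries per group can show, most of all for Slc6a12, Igfbp2 and Col3a1.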
